A study of Mus musculus with 6 samples.

Results

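The proteasome genes were examined in mRNA-seq of NK cells sorted from the spleens of both genotypes, WT and cKO. They were taken as every gene whose symbol starts with Psm, followed by a letter from a to g and a number, and 48 of the 14490 genes listed in the table met this rule. Of these, 46 encode subunits, activators, inhibitors or assembly chaperones of the proteasome. The symbols of the other 2 match only by spelling or by sequence, namely Psmc3ip, which encodes a factor of homologous recombination, and Psme2b, a single-exon relative of Psme2. Psma8, Psmb11, Psme3ip1 and Psmg3os were not in the list and were not analysed here.

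The mice were of the C57BL/6 strain, the sort was by flow cytometry, and the study's methods give an age of 6 to 10 weeks for its mice. WT mice carried the floxed Mettl3 alleles alone (Mettl3fl/fl). The cKO mice (Ncr1Cre-Mettl3fl/fl) carried the same floxed alleles together with Cre under the control of Ncr1, a gene that is active in NK cells (1 Cre allele beside a wild-type Ncr1 allele by the study's methods), so that the deletion of Mettl3 and the presence of the Cre allele cannot be told apart here. There were 3 samples per genotype, and the labels do not say whether each came from a separate animal, so that p-values measure the spread between these samples only. Values are normalized counts, that is, reads per gene divided by a size factor for each sample, and 55965515 to 71464042 reads per sample fell on the listed genes. The deleted gene, Mettl3, was measured at 1303, 1258 and 1192 normalized counts in the WT samples and at 297, 299 and 405 in the cKO samples. Its log2 fold change, cKO over WT, was -1.92 ± 0.10 (SE; limma adjusted p = 2.32e-14). NK markers were abundant in all samples, with the lowest of 9 at a WT mean of 21256 normalized counts.

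The proteasome degrades proteins that carry ubiquitin chains. Its 20S core is a barrel of stacked rings, in which alpha subunits form the outer gates and beta subunits the inner chamber, and only a few beta subunits cut peptide bonds. The 19S regulatory particle caps the barrel, binds and removes ubiquitin and threads the substrate inward with a ring of ATPases. Lymphocytes and cells exposed to interferon-γ exchange the catalytic beta subunits for the immunoproteasome forms, which alter the peptides offered on MHC class I molecules, and PA28 is an alternative cap that interferon-γ also induces.

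More proteasome genes were lower than higher in cKO NK cells. Of the 48 genes, 21 fell, 4 rose and 23 did not pass the test (limma, two-sided, Benjamini-Hochberg adjusted p under 0.05 over all listed genes). Over all listed genes, 36.6% passed the same test, 18.8% lower and 17.8% higher. The share of proteasome genes that fell was 43.8%, and the share that rose was 8.33%. Their median WT level was 4142.5 normalized counts, against 867 for all listed genes. The median SE of the log2 fold change was 0.042, against 0.075, so that smaller changes could pass among the proteasome genes. Their median absolute log2 fold change was 0.116, against 0.167. The part of this precision in the shares was not tested. The falls were small, since the median log2 fold change of the 48 genes was -0.09, against 0.00 for all listed genes, and their lowest value was -0.30. In such bulk samples fewer cells of a type and less RNA per cell cannot be told apart. When each sample was scaled to an equal total instead of by the deposited size factors, 13 fell and 5 rose (27.1% and 10.4%, against 13.9% and 24.1% of all listed genes), with medians of -0.04 for the proteasome genes and 0.05 for all listed genes. The number that rose was 2 without cKO sample 1, without cKO sample 2 or without WT sample 2. Of the 25 genes that passed, 15 did so in the same direction under every alternative run, whereas Psma1, Psma7, Psmb1, Psmc2, Psmc6, Psmd4, Psmd14 and Psmg2 no longer passed with equal totals, and Psmd3 and Psmc3ip no longer passed without some of the samples. All 3 cKO samples lay below all 3 WT samples for 25 of the 48 genes and above them for 5, against 23.0% and 22.7% of all listed genes. The plot of fold changes by role shows that the falls lay mainly in the 20S core.

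**Figure D1:**
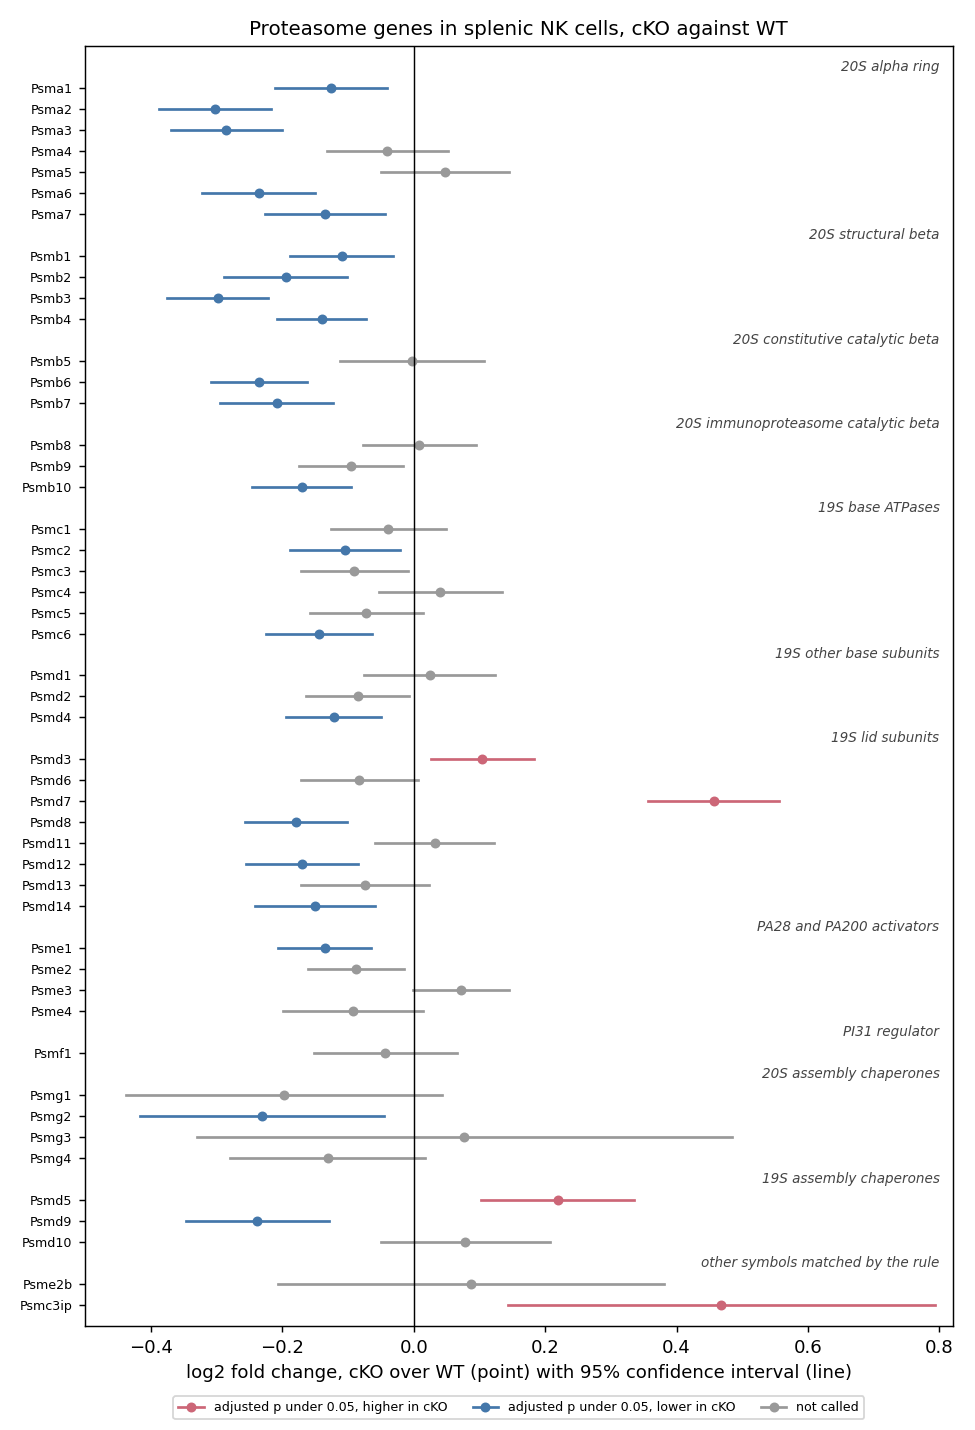
Each point is the log2 fold change (cKO over WT, 3 samples per genotype) of a gene, and each line its 95% confidence interval from limma. Genes are grouped by their role, and colours mark the 21 genes that fell, the 4 that rose and the 23 that did not pass the test. In the alpha ring and among the structural and constitutive catalytic beta subunits, 11 of 14 points are lower, whereas Psmd7 stands apart at 0.46.

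The constitutive 20S core fell most widely, with 11 of its 14 genes lower and 0 higher by limma. Of this core only Psmb5, Psmb6 and Psmb7 are exchanged in the immunoproteasome, and the alpha ring and structural beta subunits belong to both forms. The shares were 78.6% lower and 0% higher, against 18.8% and 17.8% of all listed genes. At an unadjusted p under 0.05 or by limma-voom, 0 genes of the core were higher. Its median log2 fold change was -0.17, which is a fall to 0.890 of the WT level. Scaling to equal totals left 8 of the 14 lower and 0 higher (57.1% and 0%, against 13.9% and 24.1% of all listed genes). The median was then -0.12. In the alpha ring, whose 7 subunits gate the entrance of the barrel, Psma2, Psma3, Psma6, Psma7 and Psma1 fell. Psma2 was at 7459, 7634 and 7230 normalized counts in WT and at 5998, 6457 and 5671 in cKO (samples 1, 2 and 3 in this order throughout), so that every cKO sample lay below every WT sample. The means were 7441 ± 202 and 6042 ± 395 (SD, n = 3), and the log2 fold change of -0.30 ± 0.04 (SE; limma adjusted p = 1.68e-06) was the deepest fall of the 48 genes. In GRCm38, the build of all positions given, Psma2 spans 14613240 to 14674236 of chromosome 13, plus strand.

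Psma3, on chromosome 12 from 70974621 to 70996347, had 6970, 7668 and 7011 normalized counts in WT and 5815, 6205 and 5740 in cKO. Its log2 fold change was -0.29 ± 0.04 (SE; limma adjusted p = 3.64e-06). Psma6, also on chromosome 12 from 55384222 to 55418454, had 5804, 5185 and 5574 in WT and 4600, 4844 and 4609 in cKO. Its log2 fold change was -0.24 ± 0.04 (SE; limma adjusted p = 6.54e-05). Neither gene had any overlap between the genotypes. Psma7 and Psma1 fell by 0.14 and 0.13 on the log2 scale, whereas Psma4 at -0.04 and Psma5 at 0.05 did not pass the test.

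All 4 structural beta subunits, which build the inner rings without cutting peptides, fell. Psmb3, on chromosome 11 from 97703399 to 97713500, had 5696, 5855 and 5960 normalized counts in WT and 4725, 4827 and 4689 in cKO. Its means were 5837 ± 133 and 4747 ± 71.9 (SD, n = 3), and the log2 fold change was -0.30 ± 0.04 (SE; limma adjusted p = 4.21e-07). The cKO samples of Psmb3 lay close together and well below the WT samples. Psmb2, Psmb4 and Psmb1 had log2 fold changes of -0.19, -0.14 and -0.11. Psmb1 was the 1 of these in which the genotypes overlapped.

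The catalytic subunits were compared as exchange pairs, because each immunoproteasome subunit takes the place of a constitutive one. Psmb6 and Psmb7, the constitutive subunits with caspase-like and trypsin-like activity, fell, while Psmb5, with chymotrypsin-like activity, stood at -0.0030 on the log2 scale and did not pass the test. Of the immunoproteasome subunits, Psmb10 fell, and Psmb9 and Psmb8 did not pass the test. The lower count of 1 in 3 immunoproteasome genes became 2 when Psmb9 passed under a filter of at least 1 CPM, a correction for GC content and length, or without cKO sample 2.

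Psmb6, on chromosome 11 from 70525367 to 70527858, had 7215, 7565 and 7169 normalized counts in WT and 6212, 6228 and 6191 in cKO. The genotypes did not overlap, and the log2 fold change was -0.24 ± 0.04 (SE; limma adjusted p = 7.19e-06). Its exchange partner Psmb9, on chromosome 17 from 34181987 to 34187764, had 5479, 5719 and 5533 in WT and 5207, 5406 and 5055 in cKO. Every cKO value of Psmb9 was again below every WT value, but the difference of -0.09 ± 0.04 (SE; limma adjusted p = 0.0537) missed the threshold. The annotated exons of Psmb9 share 212 bases with Tap1 on the opposite strand, and reads there cannot be assigned to either gene without strand.

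Psmb7, on chromosome 2 from 38588036 to 38644087, had 3551, 3550 and 3573 normalized counts in WT and 3159, 3101 and 2979 in cKO, a log2 fold change of -0.21 ± 0.04 (SE; limma adjusted p = 0.000270). Its partner Psmb10, on chromosome 8 from 105935735 to 105938444, had 6989, 7073 and 7006 in WT and 6162, 6521 and 6046 in cKO, a log2 fold change of -0.17 ± 0.04 (SE; limma adjusted p = 0.000572). Exons of Psmb7 share 405 bases with Nek6 on the opposite strand. In both genes the 3 WT samples were nearly level and all cKO samples were lower. Psmb5, on chromosome 14 from 54614119 to 54618022, had 1897, 1939 and 1853 in WT and 1999, 1908 and 1776 in cKO. Exons of Psmb5 share 109 bases with Mir686 on the same strand, and 21.1% of its 100-base windows are found in Gm3375, so that its reads are less certain. Its partner Psmb8, on chromosome 17 from 34197721 to 34201454, had 7335, 7299 and 7008 in WT and 7716, 7375 and 6714 in cKO. In this pair the cKO samples spread on both sides of the WT samples, and the 95% interval of the log2 fold change of Psmb8 ran from -0.08 to 0.09. Exons of Psmb8 share 498 bases with the antisense gene Gm20496.

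The ratio within a sample does not depend on the scaling between samples. Psmb9 over Psmb6 was 0.759, 0.756 and 0.772 in WT and 0.838, 0.868 and 0.817 in cKO, with no overlap. The ratio was 1.10-fold higher in cKO (exact permutation test over 20 assignments, two-sided p = 0.1, the smallest this design allows; 0.3 after adjustment over 3 pairs). Psmb10 over Psmb7 was 1.97, 1.99 and 1.96 in WT and 1.95, 2.10 and 2.03 in cKO, and Psmb8 over Psmb5 was 3.87, 3.76 and 3.78 in WT and 3.86, 3.86 and 3.78 in cKO. The genotypes overlapped for both ratios (exact permutation p = 0.4 and 0.7, two-sided, or 0.6 and 0.7 after adjustment over 3 pairs). With 3 samples per genotype this permutation test cannot give a p under 0.1. Per kilobase of the principal transcript, the 3 immunoproteasome genes together made up 49.2% ± 0.233 (SD, n = 3) of the catalytic transcripts in WT. In cKO cells they made up 51.1% ± 0.690 (SD, n = 3). These shares depend on the length assumed for each gene, and no other length was used for them.

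**Figure D2:**
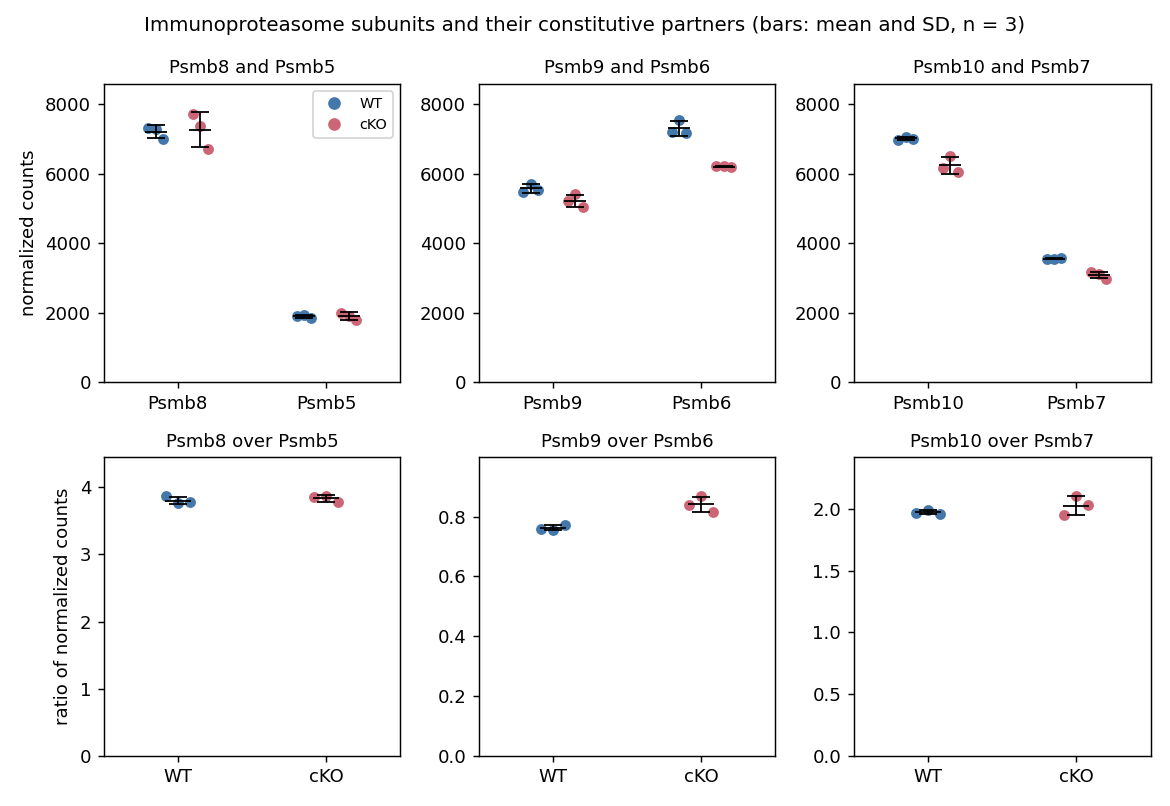
The upper panels show normalized counts per sample (points) with mean and SD (bars, n = 3) for each immunoproteasome subunit and its constitutive partner, and the lower panels the ratio of the pair in each sample. Only the ratio of Psmb9 over Psmb6 separates the genotypes among the 3 pairs, at 0.756 to 0.772 in WT and 0.817 to 0.868 in cKO.

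Psmb9 and Tap1, which encodes a chain of the peptide transporter of the MHC class I pathway, start from a shared stretch of DNA and run in opposite directions. The 225 bases between their RefSeq start sites (GRCm38.p6, chr17:34187331-34187555, plus strand, read toward Tap1) are shown because both genes start at their ends, with a CCAAT box in capitals.

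Psmb9-Tap1 interval: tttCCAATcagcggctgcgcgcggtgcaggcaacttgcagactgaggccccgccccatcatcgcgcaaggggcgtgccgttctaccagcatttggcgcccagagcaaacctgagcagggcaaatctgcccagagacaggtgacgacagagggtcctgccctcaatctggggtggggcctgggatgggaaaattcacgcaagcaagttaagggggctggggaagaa

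The letters CCAAT, searched on both strands, occurred in this interval 1 time. Tap1 had 12387, 11674 and 11910 normalized counts in WT and 12058, 12562 and 12066 in cKO, a log2 fold change of 0.03 that did not pass the test. The ratio of Psmb9 over Tap1 was 0.442, 0.490 and 0.465 in WT and 0.432, 0.430 and 0.419 in cKO, so that the genotypes did not overlap. This ratio was chosen with its values known and is given as a description.

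In the 19S regulatory particle 6 of 17 genes were lower, 2 were higher and 9 did not pass the test, with a median log2 fold change of -0.08. The shares were 35.3% lower and 11.8% higher, against 18.8% and 17.8% of all listed genes. The difference between core and regulatory particle was not tested. Scaling to equal totals left 2 of the 17 lower, Psmd8 and Psmd12, and 2 higher (11.8% each, against 13.9% and 24.1% of all listed genes). Psmd7 rose most among the proteasome proper. It encodes a lid subunit that pairs with the deubiquitinating subunit Psmd14, and it lies on chromosome 8 from 107580381 to 107588464 on the minus strand, with no overlap with exons of another gene. Psmd7 was at 1947, 2128 and 2080 normalized counts in WT and at 2843, 2859 and 2741 in cKO. All cKO samples stood far above the WT samples. The means were 2052 ± 93.7 and 2814 ± 64.1 (SD, n = 3), and the log2 fold change was 0.46 ± 0.05 (SE; limma adjusted p = 2.63e-08), a 1.37-fold rise. Across all listed genes, 678 rose by at least as much and passed the test, or 4.68%. Psmd14 itself had a log2 fold change of -0.15 and fell.

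Psmd3, another lid subunit, on chromosome 11 from 98682554 to 98695979, had 4746, 4546 and 4748 normalized counts in WT and 5000, 5034 and 5058 in cKO. Its rise of 0.10 ± 0.04 on the log2 scale (SE; limma adjusted p = 0.0311) no longer passed the test under the correction for GC content and length, without any 1 of the 3 cKO samples, or without WT sample 2. Without cKO sample 1, cKO sample 2, cKO sample 3 or WT sample 2, or under that correction, Psmd7 was the 1 gene of the regulatory particle that rose. Psmd8, Psmd12 and Psmd14 fell among the lid subunits, at -0.18, -0.17 and -0.15, while Psmd6 at -0.08, Psmd13 at -0.07 and Psmd11 at 0.03 did not pass the test. In the base, the ATPases Psmc6 and Psmc2 fell, at -0.14 and -0.10. The other ATPases, Psmc3 at -0.09, Psmc5 at -0.07, Psmc1 at -0.04 and Psmc4 at 0.04, did not pass the test. Psmd4, the subunit that binds ubiquitin chains, fell at -0.12, and the large scaffold subunits Psmd2 at -0.09 and Psmd1 at 0.02 did not pass the test.

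**Figure D3:**
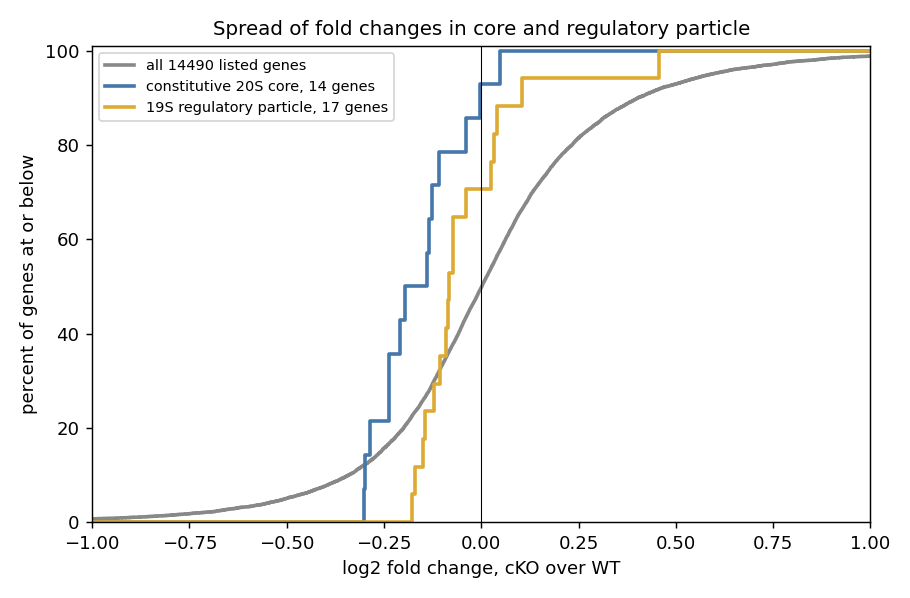
The curves give the percent of genes (vertical axis) with a log2 fold change at or below the value on the horizontal axis, for all 14490 listed genes, the 14 genes of the constitutive 20S core and the 17 genes of the 19S regulatory particle. The medians are 0.00, -0.17 and -0.08, and the single step of the regulatory particle at 0.46 is Psmd7.

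**Figure D4:**
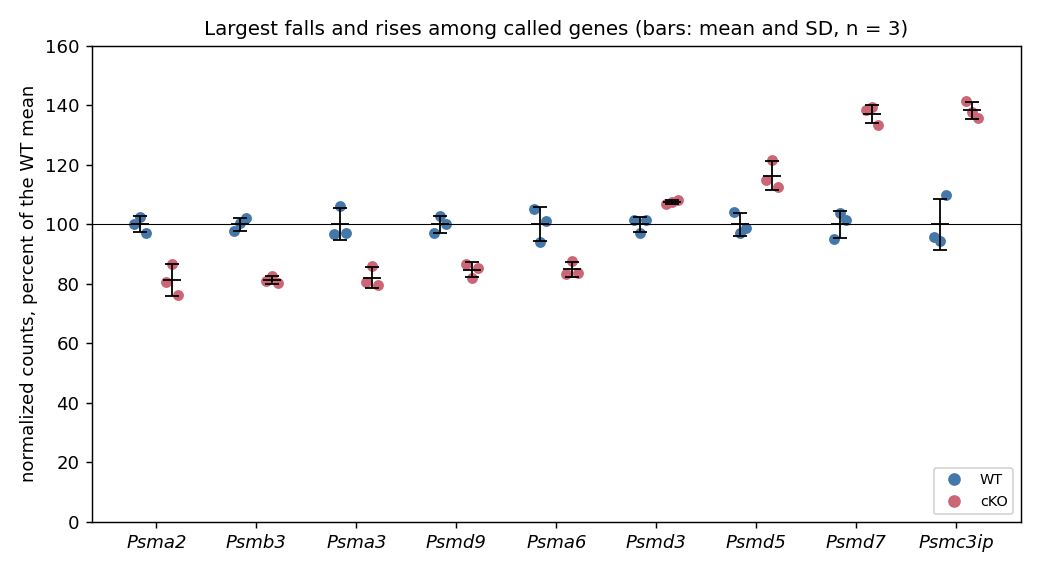
Normalized counts per sample are drawn as percent of the WT mean of each gene (points), with mean and SD (bars, n = 3), for the 5 largest falls and all 4 rises that passed the test. The cKO samples of every gene shown lie wholly below or wholly above its WT samples.

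The assembly chaperones split in direction. For the regulatory particle, Psmd5 rose and Psmd9 fell, both being chaperones that hold parts of the ATPase ring until the base is complete. Psmd5, on chromosome 2 from 34849734 to 34874968, had 1455, 1354 and 1378 normalized counts in WT and 1604, 1698 and 1571 in cKO, a log2 fold change of 0.22 ± 0.06 (SE; limma adjusted p = 0.00319). Psmd9, on chromosome 5 from 123169413 to 123250131, had 1805, 1908 and 1858 in WT and 1613, 1525 and 1588 in cKO, a log2 fold change of -0.24 ± 0.05 (SE; limma adjusted p = 0.000762). The genotypes overlapped in neither gene, although 1849 exonic bases of Psmd9 lie opposite the noncoding gene Gm26745. Psmd10, the third chaperone of this kind, was at 0.08 and did not pass the test. Of the chaperones of the 20S core, Psmg2 fell at -0.23 (limma adjusted p = 0.0458), and Psmg1 at -0.20, Psmg4 at -0.13 and Psmg3 at 0.08 did not pass the test.

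Among the alternative caps, Psme1 fell and Psme2 did not pass the test. They encode the PA28 subunits that form a ring together, and lie 5911 bases apart on chromosome 14. Psme1, from 55578123 to 55581529, had 14175, 14180 and 13380 normalized counts in WT and 12839, 12991 and 12164 in cKO, a log2 fold change of -0.14 ± 0.03 (SE; limma adjusted p = 0.00277). Psme2, from 55587441 to 55591113, had 8615, 8894 and 8762 in WT and 8533, 8292 and 7897 in cKO, a log2 fold change of -0.09 ± 0.04 (SE; limma adjusted p = 0.0539). In both genes all cKO samples were below all WT samples, and Psme2 passed under 6 alternatives. The ratio of Psme1 over Psme2 was 1.59 ± 0.0594 in WT and 1.54 ± 0.0312 in cKO, with overlap between the genotypes (SD, n = 3).

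Psme3, which forms a PA28 ring in the nucleus, stood at 0.07 on the log2 scale (limma adjusted p = 0.115) and passed the test, at 0.12, with equal totals. Psme4, the nuclear PA200 cap, was at -0.09 and Psmf1, the regulator PI31, at -0.04, and neither passed the test. Of the symbols that are not proteasome subunits, Psmc3ip had 130, 128 and 149 normalized counts in WT and 192, 187 and 185 in cKO, a log2 fold change of 0.47 ± 0.16 (SE; limma adjusted p = 0.0213). This rise at low counts did not pass the test without cKO sample 1, cKO sample 2, WT sample 1 or WT sample 2, and the exons of Psmc3ip share 385 bases with Mlx on the opposite strand. Psme2b was at 0.09 and did not pass the test, and since 52.0% of its 100-base windows are found in Psme2, its reads could not be assigned with certainty.

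Psmb5, Psme1, Psme2, Psmc6 and Psmd6 lie on chromosome 14 together with Mettl3 (52294841 to 52305128). Psmb5 is 2.31 Mb, Psme1 3.27 Mb and Psme2 3.28 Mb from it, and Psmc6 and Psmd6 lie 6.95 Mb and 38.2 Mb away. Of these 5 genes Psme1 and Psmc6 fell.

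The levels of the subunits differed far more from each other than between genotypes. In WT, the highest level per kilobase of transcript was that of Psme1, at 12510 ± 414 normalized counts per kb (SD, n = 3). Psmb6 followed at 9168 ± 272 and Psme2 at 9103 ± 145, and these neighbours did not differ beyond their spread. Psmb4 was next at 8535 ± 200 and Psmb3 at 7620 ± 173. Within the catalytic pairs, Psmb8 at 4431 ± 110 was 2.10-fold above Psmb5 at 2109 ± 47.8, Psmb10 at 5357 ± 33.7 was 1.75-fold above Psmb7 at 3067 ± 11.04, and Psmb9 at 4125 ± 93.1 was at 0.450 of Psmb6. The lowest level among proteasome genes was that of Psmg3, at 136 ± 31.5.

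The order depended on the length assumed. With the union of all annotated exons in place of the principal transcript, a choice made after the data were seen, Psme1 stayed first at 6298 normalized counts per kb, Psmb4 was at 5175, Psme2 at 4964 and Psmb6 at 3908. With that length Psmb8 at 2134 was 1.01-fold of Psmb5 at 2109, Psmb10 at 4119 was 3.96-fold above Psmb7 at 1040.0, and Psmb9 at 1524 was at 0.390 of Psmb6. Medians by role were taken per kb of the principal transcript. That of the core was 3657 ± 92.2 in WT and 3302 ± 116 in cKO, with no overlap (SD, n = 3). That of the regulatory particle was 2328 ± 70.6 and 2251 ± 81.0, with overlap (SD, n = 3). The ratio of the core median to that of the regulatory particle was 1.53, 1.58 and 1.60 in WT and 1.49, 1.46 and 1.45 in cKO.

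**Figure D5:**
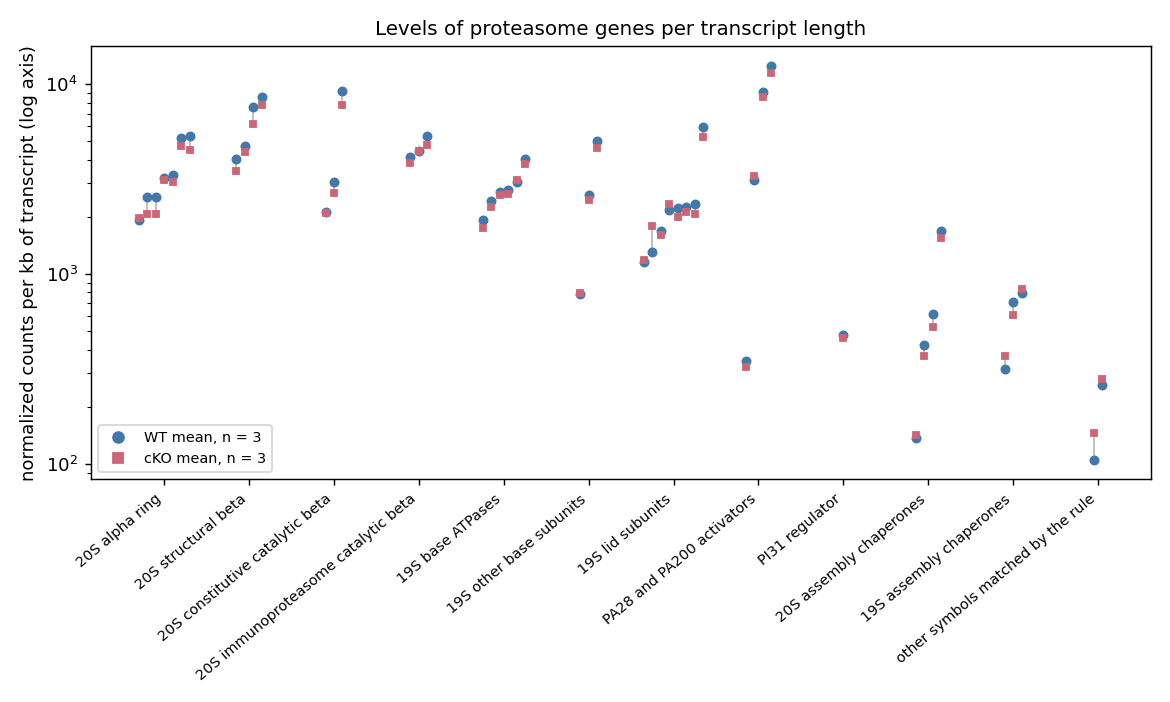
The vertical axis gives normalized counts per kb of the principal transcript on a log scale, with circles for WT means and squares for cKO means (n = 3 each), and a grey line joining the values of each gene. Psme1 is highest at 12510 in WT and the assembly chaperones lie low, whereas the shift between genotypes is small beside the range within each role.

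Genes of the ubiquitin and proteasome pathway under other symbols were read from the same comparison. Of 41 listed, 12 fell, 7 rose and 22 did not pass the test, with a median log2 fold change of -0.03. The shares were 29.3% lower and 17.1% higher, against 18.8% and 17.8% of all listed genes. With equal totals 7 fell and 11 rose, or 17.1% and 26.8%, against 13.9% and 24.1%. Among subunits named otherwise, Sem1, a small lid subunit, fell at -0.13, and the ubiquitin receptor Adrm1 at 0.06 and the deubiquitinase Uchl5 at -0.11 did not pass the test. With equal totals Sem1 no longer passed (-0.08, limma adjusted p = 0.157), and Adrm1 passed (0.11, limma adjusted p = 0.00732). The genotypes overlapped for Sem1, which also lost the call under the correction for GC content and length. Among assembly factors Fbxo7, a binding partner of PI31, rose at 0.23. The core maturation factor Pomp was at -0.01 and did not pass the test.

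Of 7 proteins that associate with the proteasome, 3 fell and 2 rose. The zinc finger protein Zfand2b fell at -0.33, the thioredoxin-like protein Txnl1 at -0.21 and the deubiquitinase Usp14 at -0.14. Usp14 no longer passed with equal totals (limma adjusted p = 0.1502) or under the correction for GC content and length. Zfand2a, which is induced by arsenite, rose at 0.21, and Zfand5 rose at 0.11. Of 9 genes for ubiquitin, its activating enzyme and the p97 segregase with its cofactors, 4 fell and 1 rose. The ubiquitin gene Ubb had 145631, 148033 and 147211 normalized counts in WT and 130039, 133082 and 126589 in cKO, a log2 fold change of -0.18 ± 0.03 (SE; limma adjusted p = 2.61e-05). Uba1, the activating enzyme, fell at -0.20. Of 5 shuttling receptors that carry ubiquitin chains to the proteasome, Rad23b and Ubqln4 fell, at -0.13 and -0.11, and Ubqln2 rose at 0.18. Ubqln4 no longer passed with equal totals (limma adjusted p = 0.225) or in 5 of the 6 fits that left out a sample.

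The transcription factors Nfe2l1 and Nfe2l2 bind antioxidant response elements, and Nfe2l1 is known to raise proteasome genes when proteasome activity is low. Nfe2l1 had 6839, 6976 and 6770 normalized counts in WT and 6831, 6674 and 6791 in cKO, and its log2 fold change of -0.02 did not pass the test. Nfe2l2 had 5182, 5669 and 5844 in WT and 4984, 4703 and 4810 in cKO, and it fell at -0.20 ± 0.04 (SE; limma adjusted p = 0.000462). Ddi2 and Ngly1, which process Nfe2l1, were at 0.03 and -0.08 and did not pass the test.

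Promoter windows around RefSeq start sites (GRCm38.p6) were found for 41 of the 48 genes and searched on both strands. The 7 without a window were Psmb1, Psmb2, Psmb7, Psmc3, Psmd3, Psmd7 and Psmg2. The core of the antioxidant response element, TGACNNNGC, was found in 6 of the 41, or 14.6%, against 13.99% of all genes with a window. These 6 matches are shown on the strand of each gene because they include genes that fell and genes that did not, with the matching bases in capitals.

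Psmb6 (chr11:70525338-70525366): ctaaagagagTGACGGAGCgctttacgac
Psmb5 (chr14:54618024-54618052): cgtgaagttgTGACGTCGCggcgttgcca
Psmd9 (chr5:123228149-123228177): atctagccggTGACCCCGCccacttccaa
Psmc6 (chr14:45329587-45329615): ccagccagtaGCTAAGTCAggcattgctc
Psmd12 (chr11:107479278-107479299): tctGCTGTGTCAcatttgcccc
Psme4 (chr11:30771758-30771786): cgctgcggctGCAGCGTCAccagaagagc

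In Psmc6, Psmd12 and Psme4 the match is on the opposite strand. Psmb6, Psmd9, Psmc6 and Psmd12 fell, and Psmb5 and Psme4 did not pass the test. The share among the proteasome genes was close to that of all genes.

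Of genes on the interferon-γ axis, which induces the immunoproteasome and PA28, Ifng rose at 0.16 and Ifngr1, the ligand-binding chain of its receptor, fell at -0.31. Ifngr1 had 92792, 93674 and 92178 normalized counts in WT and 73732, 76281 and 74874 in cKO (limma adjusted p = 2.37e-09). The downstream factors Irf1 at 0.04 and Nlrc5 at -0.05 did not pass the test. Of 4 genes of peptide transport and trimming, Erap1, which trims peptides in the endoplasmic reticulum, rose at 0.24, and Tap1, Tap2 and Tapbp did not pass the test. With equal totals Irf1 passed at 0.09 (limma adjusted p = 0.0133) and Tap2 at 0.10 (limma adjusted p = 0.0206). Nlrc5, Tap1 and Tapbp did not pass with equal totals either. The gamma-activated site TTCNNNGAA was found in 3 of 41 windows, or 7.32%, against 9.55% of all genes. These were the windows of Psmb8, Psmd2 and Psmg1, none of which passed the test of genotype. The core of the interferon-stimulated response element, GAAANNGAA, was found in 7 of 41, or 17.1%, against 9.76% of all genes. No immunoproteasome gene was among these 7, which were Psmb3, Psmb4, Psmc2, Psmd4, Psmd9, Psme1 and Psmg4. Psmg4 did not pass the test of genotype and the other 6 fell, where 43.8% of the 48 proteasome genes fell. In these windows no match of a motif overlapped a match of another motif. The matches in an immunoproteasome gene, in a PA28 gene and in the structural beta subunit that fell most are shown on the strand of each gene.

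Psmb8, TTCNNNGAA (chr17:34198088-34198116): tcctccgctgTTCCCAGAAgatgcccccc
Psme1, GAAANNGAA on the opposite strand (chr14:55578494-55578522): gagctgtgctTTCGCTTTCccttcccgct
Psmb3, GAAANNGAA on the opposite strand (chr11:97703262-97703290): acagtgacttTTCACTTTCcgctttccat

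The CCAAT box was found in 34.1% of the 41 windows and in 41.1% of all genes with a window. None of these matches was tested as a site.

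Markers of other cells in the sorted samples differed between the genotypes beside these results. Of 7 B-cell markers 6 rose, and their summed level was 9242 to 10122 normalized counts in WT and 10704 to 11365 in cKO. Of 9 NK markers 6 fell and 1 rose, with sums of 782651 to 809433 in WT and 718353 to 758671 in cKO. Of 6 T-cell markers Cd3g fell and the others did not pass the test, with sums of 1794 to 1987 and 1395 to 1619. Among these others, Cd8a was low, at means of 45.2 in WT and 71.3 in cKO, without overlap between the genotypes. Its log2 fold change of 0.66 (limma adjusted p = 0.0514) missed the threshold, and with equal totals Cd8a passed (limma adjusted p = 0.0347). Of 5 myeloid markers 3 rose and 1 fell, with sums of 46153 to 48986 and 48833 to 50405, most of it from Itgax, which NK cells also express. Of 5 erythroid markers 0 passed the test in either direction (limma, and 1 at an unadjusted p under 0.05; limma-voom gave the same counts), with sums of 811 to 870 and 684 to 832. No marker listed was at 0 in all samples. The part of these cells in the proteasome results was not tested.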

How the data were processed

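The mRNA of sorted splenic NK cells was sequenced in 6 samples, 3 per genotype, and grouped by the sample labels. The authors aligned paired reads to GRCm38 with HISAT2 and counted them per gene with featureCounts (1.5.0-p3 per the labels). The values the authors deposited are a signal, reads per gene divided by the DESeq2 size factor of the sample (DESeq2 1.16.1 per the labels). The authors also deposited their mean, log2 fold change with its error, a test statistic given as a score, and p-values with adjusted p-values, none of which was used here.

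A pseudocount of 1 was added before the log2 transformation. The filter asked for 1 normalized count or more in 3 samples, and 0 genes failed it. Limma 3.58.1 in R 4.3.3 fitted genotype alone, allowing the variance to follow the mean. Tests were two-sided, p-values were adjusted over the 14490 genes by the Benjamini-Hochberg method, and a gene was called at an adjusted p under 0.05. The added 1 understates changes of low genes. Ratios were compared by the exact permutation test over samples (SciPy), whose smallest two-sided p is 0.1. Every value was a whole multiple of the worth of 1 read, within 0.1 read, which gave the reads on listed genes. Samples of a genotype differed beyond counting error, with chi-square per degree of freedom of 5.50 to 8.00. Of the listed names, 97.3% matched the GENCODE annotation of GRCm38, which gave positions and lengths, and all 48 genes matched. Exons of Psma4, Psma5, Psmc3, Psmd1, Psmd3, Psmd13, Psme1 and Psmg3 also overlap another gene, so that their reads are less certain, and 13.4% to 52.0% of the 100-base windows of Psma3, Psma5, Psmb5, Psmc3ip, Psmd9, Psme2 and Psme2b occur in other genes. Levels between genes were compared per kilobase of the longest principal transcript.

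The genes named with values per sample were the catalytic subunits, Psme1 and Psme2, and up to 5 largest rises and 5 largest falls among called genes with a mean of at least 1 CPM. Pathway genes and Mettl3 were named as called or as a check, and others for their role. The members, lists and comparisons were chosen with earlier results of these data known. Also tried were adding 0.1 instead of 1, omitting the filter, asking for 1 CPM in 3 samples, equal totals, limma-voom on the recovered reads, a replicate block, splines for GC content and length, and leaving out each sample. Promoter windows came from RefSeq. Some single genes of the pathway lists are counted but not reported by name here.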

Additional observations from a re-analysis of the deposited data

How the results depend on the processing

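Of the 25 called genes, 15 kept call and direction under every alternative run, 13 lower and 2 higher (Psmd7 and Psmd5). With equal totals 17 kept them, and the calls of Psma1, Psma7, Psmb1, Psmc2, Psmc6, Psmd4, Psmd14 and Psmg2 were lost. Leaving out 1 sample gave 18 to 24 called genes, of which 2 to 4 were higher and 15 to 22 lower. Without cKO sample 1 the calls of Psmb1, Psmc2, Psmc3ip, Psmd3, Psmd4 and Psmg2 were lost (limma adjusted p of 0.0528 to 0.224), without cKO sample 2 those of Psmc3ip and Psmd3 (0.0518 and 0.0623), and without cKO sample 3 those of Psma1, Psma7, Psmb1, Psmc2, Psmd14, Psmd3 and Psmg2 (0.0645 to 0.170). Without WT sample 1 Psmc2 and Psmc3ip were lost (0.0784 and 0.0582), without WT sample 2 Psma7, Psmb1, Psmc2, Psmc3ip, Psmd3 and Psmg2 (0.0581 to 0.198), and without WT sample 3 Psmb1, Psmc2 and Psmg2 (0.0591 to 0.114). Of the pathway genes named, Sem1, Ubqln4, Usp14 and Zfand5 each lost the call without at least 1 of the samples (0.0509 to 0.228). Equal totals gave 13 lower genes in all, 2 lower in the regulatory particle, and 11 higher and 7 lower among the other pathway genes. The correction for GC content and length left 1 higher gene in the regulatory particle, as did leaving out some samples, with a range of 1 to 2. Lower immunoproteasome genes were 2 under the CPM filter, the replicate block, the correction, and the correction with the block, and 1 to 2 when leaving out a sample. Counts not given here stayed within 1.5 times.

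Some genes with a change near 0 that did not pass the test turned in sign. With equal totals Psmb5 was at 0.0467, Psma4 at 0.0096, Psmc1 at 0.0112 and Psmf1 at 0.0067. Under the correction, with and without the block, Psmb8 was at -0.0075 and Psmb5 at 0.0047, and the log2 ratio of Psmb8 over Psmb5 was -0.0123 under the correction. Leaving out 1 sample gave a range of -0.114 to 0.227 for Psmg3, -0.0019 to 0.0694 for Psmd11, -0.0057 to 0.0625 for Psmd1, -0.0355 to 0.0648 for Psmb8, -0.0425 to 0.0427 for Psmb5, -0.0716 to 0.0049 for Psma4 and -0.0627 to 0.0086 for Psmc1. The cause was not tested.

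Deviations of samples with the same replicate number correlated at -0.04, 0.06 and 0.04, and those with different numbers at -0.07 to 0.04. With 3 samples per genotype these values cannot show whether samples were paired. With the replicate block 27 genes were called, 4 higher and 23 lower, and the ratio of Psmb9 over Psmb6 had an exact sign-flip p of 0.25, the smallest possible. The count tools edgeR, with its scaling, and DESeq2, named as alternatives, were not run, and limma-voom on the recovered reads was run in their place. With 3 samples per genotype, genes at low counts such as Psmg3 had wide intervals.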
